A study of Equus caballus with 26 samples.

Results

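Complex I of the mitochondrial respiratory chain was followed in horse whole blood through the genes whose symbol starts with NDUF, which encode its nuclear subunits and a family of its assembly factors. A gene was taken as a member where the gene name on the array, the gene ID in that name, or the probe description gave an NDUF symbol, and where 3 or more arrays had its brightest probe well above background. Of 24415 gene names on the array, 42 carried such a symbol and 41 were used, as 34 subunits and 7 assembly factors. All 41 were well above background on all 26 arrays. *NDUFA4L2* was well above background on 0 arrays and was not used, and 5 further symbols (*NDUFA4*, *NDUFA11*, *NDUFB6*, *NDUFC2* and *NDUFAF8*) had no probe found under these names. The symbol came from the gene ID in 36 members, from the description in 4 (*NDUFA2*, *NDUFA3*, *NDUFA12* and *NDUFC1*) and from the gene name in 1 (*NDUFS1*). The description also named the symbol in 35 of the 41, with 0 conflicts.

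Complex I takes electrons from NADH, passes them along a flavin and a chain of iron-sulphur clusters to ubiquinone, and pumps protons across the inner mitochondrial membrane. Its core subunits do this work. The accessory subunits surround and stabilise them, and the assembly factors help to build the complex without staying in it. In blood, lymphocytes and platelets are known to respire more through mitochondria than neutrophils, which rely mainly on glycolysis.

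The animals were Arabian or part-Arabian horses, with a mean age of 10 ± 2 years (SEM) over the whole study, that started 160 km endurance rides. Blood was drawn before the ride (T0) or after it (T1). The experimental set, labelled training, held 3 geldings (horses 2, 32 and 41) sampled at both time points, and all of them finished. The validation set held 7 horses at T0 (3 females and 4 geldings) and 13 other horses at T1 (3 females and 10 geldings), 1 array each. By the study's methods most of its validation horses sampled at T0 failed to finish whereas those sampled at T1 finished. The outcome of each of the 7 horses was not used here, and time point and outcome cannot be told apart in that set. The 26 arrays came from 23 horses. In the validation set p-values measure the spread between horses. In the experimental set they measure the spread, between its 3 horses, of the change within a horse. Between 60.2% and 75.3% of the probes of an array were well above background, and 0 of the 41 probes of the members were saturated on any array. A level is the log2 processed signal minus the 75th percentile of its array, and a change is T1 minus T0 on that log2 scale. In bulk blood, fewer cells of a type and less RNA per cell cannot be told apart.

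The probes that carried the main results are shown here, 5′ to 3′ as the scanner files give them, because a change is only that of the bases a probe reads. The brightest of the 5 probes of *NDUFS6* lay at chr21:52209378-52210387 (minus strand), a span of 1010 bases for a probe of 60. Capitals mark the 55 bases that all 5 share.
NDUFS6: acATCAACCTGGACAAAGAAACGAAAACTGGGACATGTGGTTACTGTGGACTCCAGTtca
The 3 probes of *NDUFAF3*, of which the brightest lay at chr16:38020032-38020091 (minus strand), shared 57 bases. The first 30 of these are given.
NDUFAF3: TCCTCTTTGGCACTGTAACACTTGCCTTGC
*NDUFA3* had 1 probe, at chr10:17944556-17944615 (plus strand). Its last 30 bases hold the polyadenylation signal AATAAA in capitals, a motif found, in the orientation printed, in 8.69% of all 43384 probes and in 8 of the 41 probes of the members.
NDUFA3: ctgtggcccccAATAAAaatgtgaaaactg
*NDUFAF4* had 2 probes that overlap at their ends, at chr10:43076231-43076290 and chr10:43076283-43076342 (minus strand), whose values went in opposite directions (given with its values). Capitals mark the 8 bases that both share.
NDUFAF4 brighter probe: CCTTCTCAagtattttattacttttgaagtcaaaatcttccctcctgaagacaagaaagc
NDUFAF4 dimmer probe: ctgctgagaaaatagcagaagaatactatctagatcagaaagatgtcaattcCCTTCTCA
Positions are those of the array's annotation, whose build is named only by a header that gives EquCab1.

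Many complex I genes were lower in blood after the ride. In the validation set 17 of the 41 members (41.5%) fell and 0 rose, where 23.9% of the 17403 gene names tested fell and 20.3% rose. The count of members that fell was 26 both with normexp and quantile normalization and with the authors' series values. In those fits 4091 and 4052 of all gene names fell, in place of 4161. With the mean of a gene's probes or with the scan day as a term, 1 member rose. By group, 15 of the 34 subunits (44.1%) and 2 of the 7 assembly factors (28.6%) fell. The counts of smaller groups below are to be read against the same 23.9% of all gene names. The median change was -0.49 over the subunits, which is a level of 71.1% of T0, and -0.19 over the assembly factors, or 87.7%, against -0.068 over all gene names tested. The changes of the subunits ran from -0.89 to 0.36 and those of the assembly factors from -1.09 to 0.24, so that the ranges of the 2 groups overlapped. No test was made between these groups of genes. A member was counted where limma gave an adjusted p under 0.05 over all gene names.

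**Figure D1:**
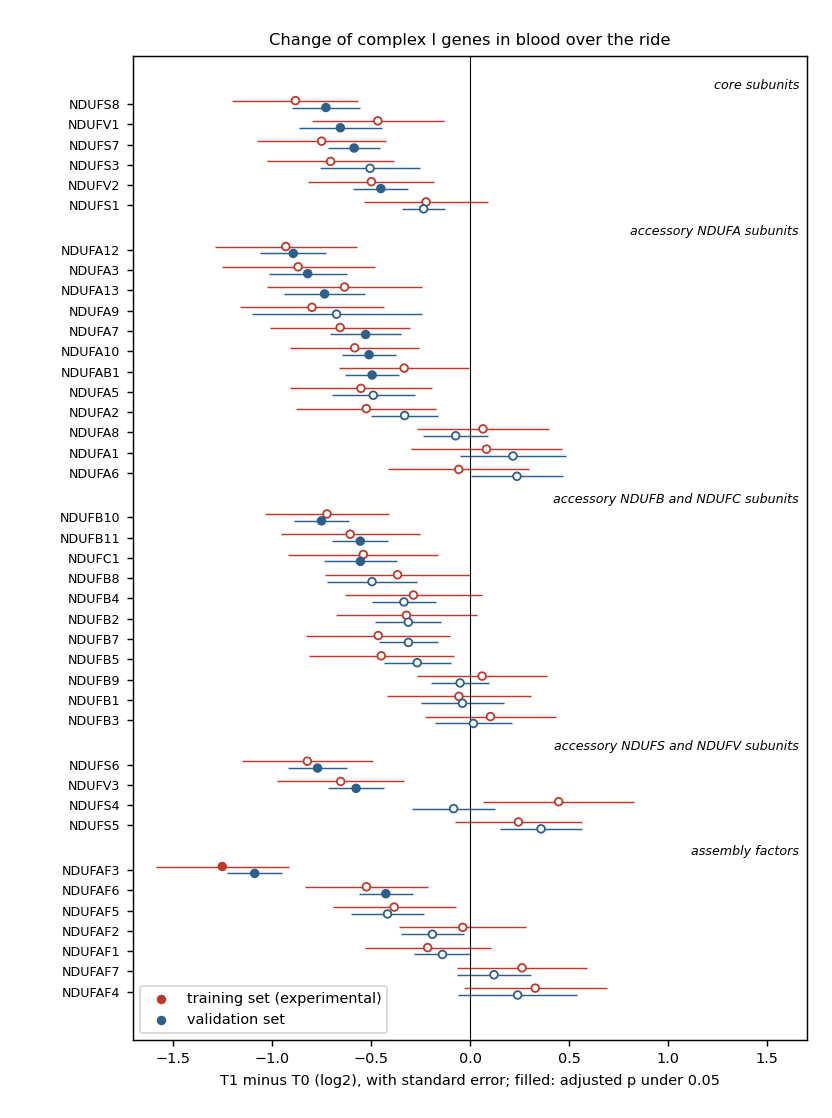
Change from T0 to T1 (x axis, log2) of 40 of the 41 genes (y axis, by role) in the training set (red, 3 horses sampled at both times) and in the validation set (blue, 7 horses at T0 and 13 at T1). Bars are standard errors from limma and filled points passed an adjusted p of 0.05. Most points lie left of 0, and 17 of the blue points and 1 of the red points are filled.

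Of the 7 core subunits, 4 fell in the validation set (*NDUFS7*, *NDUFS8*, *NDUFV1* and *NDUFV2*). *NDUFV1* holds the flavin that accepts electrons from NADH, and its level at T1 was 63.5% of that at T0 (log2 change -0.65, SE 0.21, adjusted p = 0.0141). *NDUFS8* and *NDUFS7*, which carry the iron-sulphur clusters nearest to ubiquinone, changed by -0.73 (SE 0.17, adjusted p = 0.00171) and -0.59 (SE 0.13, adjusted p = 0.00117). *NDUFV2*, another iron-sulphur subunit, changed by -0.45 (SE 0.14, adjusted p = 0.0115). *NDUFS3* (-0.50, SE 0.25) and *NDUFS1* (-0.23, SE 0.11) did not pass, with adjusted p of 0.112 and 0.0798.

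Of the 12 NDUFA subunits, 6 fell (*NDUFA3*, *NDUFA7*, *NDUFA10*, *NDUFA12*, *NDUFA13* and *NDUFAB1*), with changes between -0.89 and -0.49. *NDUFA12*, an accessory subunit related in sequence to the assembly factor *NDUFAF2*, fell most among all subunits. In the experimental horses 2, 32 and 41 its level was 2.66, 1.95 and 2.77 at T0 and 1.01, 1.65 and 1.93 at T1. Its lowest, median and highest validation levels were 1.88, 2.67 and 3.11 at T0 and 1.32, 1.74 and 2.23 at T1. It was lower at T1 in each of the 3 experimental horses, as were 25.6% of all gene names. In the validation set 8 of the 13 horses at T1 lay below all 7 at T0. The change was -0.93 (SE 0.36, adjusted p = 0.125) in the experimental set and -0.89 (SE 0.17, adjusted p = 0.000266) in the validation set. *NDUFA3*, a small subunit of the membrane arm, had levels of 5.74, 4.80 and 5.48 at T0 and 4.09, 4.83 and 4.49 at T1 in the experimental horses. Its validation levels were 4.62, 5.61 and 6.16 (lowest, median and highest) at T0 and 4.26, 4.64 and 5.50 at T1. Horse 32 did not follow the other 2 experimental horses, and all 13 validation horses at T1 lay below the median at T0. The change was -0.87 (SE 0.39, adjusted p = 0.171) and -0.82 (SE 0.20, adjusted p = 0.00211). *NDUFA13*, also known as GRIM-19, changed by -0.73 (SE 0.20) and *NDUFAB1*, the mitochondrial acyl carrier protein, by -0.49 (SE 0.14) in the validation set. *NDUFA2*, *NDUFA5*, *NDUFA8* and *NDUFA9* had values of -0.33, -0.49, -0.073 and -0.67, and *NDUFA1* and *NDUFA6* of 0.22 and 0.24, with adjusted p of 0.0648 or higher.

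Of the 11 NDUFB and NDUFC subunits, which sit in the membrane arm, 3 fell (27.3%), near the 23.9% of all gene names. These were *NDUFB10* (-0.75, SE 0.14, adjusted p = 0.00023), *NDUFB11* (-0.55, SE 0.14, adjusted p = 0.00328) and *NDUFC1* (-0.55, SE 0.19, adjusted p = 0.0196). *NDUFB5*, an accessory subunit that the study names in its own analysis, is given in full for that reason. Its level in the experimental horses 2, 32 and 41 was 2.25, 1.0 and 1.94 at T0 and 0.98, 0.84 and 2.03 at T1. The lowest, median and highest validation levels were 1.42, 1.98 and 2.37 at T0 and 0.97, 1.79 and 2.38 at T1. The groups overlapped over nearly their whole range, and horse 4 at T1 had the highest of the 20 validation values. The change was -0.45 (SE 0.37, adjusted p = 0.445) in the experimental set and -0.27 (SE 0.17, adjusted p = 0.214) in the validation set. *NDUFB5* was thus not shown to change in the main fit of either. In the validation set its call depended on the normalization, and it passed as lower under 3 of 13 alternatives. These were normexp with quantile normalization (-0.37, limma adjusted p = 0.0318), quantile normalization (-0.39, 0.0477) and the authors' series values (-0.38, 0.033). The remaining 7 (*NDUFB1*, *NDUFB2*, *NDUFB3*, *NDUFB4*, *NDUFB7*, *NDUFB8* and *NDUFB9*) had values between -0.49 and 0.017. *NDUFB2* had another gene name on the array, found through its accession only, which read -0.32 (SE 0.17) beside the -0.31 (SE 0.17) of the probe used.

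Among the 4 accessory NDUFS and NDUFV subunits, *NDUFS6* and *NDUFV3* fell. *NDUFS6*, a zinc-binding subunit beside the NADH-oxidising module, had levels of 3.54, 2.93 and 3.05 at T0 and 2.22, 2.46 and 2.38 at T1 in the experimental horses 2, 32 and 41. Over the validation horses the lowest, median and highest levels were 2.59, 3.36 and 4.01 at T0 and 2.24, 2.61 and 2.87 at T1. It was lower at T1 in each of the 3 experimental horses, as were 25.6% of all gene names, and in the validation set 6 of the 7 horses at T0 lay above all 13 at T1. The change was -0.82 (SE 0.33, adjusted p = 0.138) and -0.77 (SE 0.15, adjusted p = 0.000345), and the 5 probes gave validation changes between -0.78 and -0.75. *NDUFV3* changed by -0.58 (SE 0.14, adjusted p = 0.00233). *NDUFS4* and *NDUFS5* did not pass in either set. Their values were 0.45 (SE 0.38) and 0.24 (SE 0.32) in the experimental set and -0.083 (SE 0.21) and 0.36 (SE 0.21) in the validation set.

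*NDUFAF3*, which binds *NDUFAF4* and helps to assemble the module around the ubiquinone site, had the largest fall of all 41 members in both sets. Its level in the experimental horses 2, 32 and 41 was 3.90, 3.32 and 3.54 at T0 and 2.10, 2.48 and 2.43 at T1. Among the validation horses the lowest, median and highest levels were 3.02, 3.73 and 3.90 at T0 and 2.19, 2.57 and 3.0 at T1. All T1 values lay below all T0 values in each set. In the experimental set this also held for *NDUFA12*, *NDUFS6* and *NDUFAF6* among the members given in detail. The share of all gene names with that separation in the experimental set was not counted. *NDUFAF3* was the 1 validation member of 41 for which the 13 horses at T1 all lay below the 7 at T0, which held for 0.755% of all gene names, and 0 members had all T1 values above those at T0, which held for 1.45%. Its level at T1 was 47.1% of that at T0 in the validation set (change -1.09, SE 0.14, adjusted p = 8.8e-06), and the change in the experimental set was -1.25 (SE 0.34, adjusted p = 0.0497). The 3 probes gave changes between -1.25 and -1.18 in the experimental set and between -1.09 and -1.04 in the validation set.

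*NDUFAF6*, which acts early in the assembly of complex I, was the other assembly factor that fell. Its level was -0.87, -0.89 and -0.67 at T0 and -1.46, -1.51 and -1.03 at T1 in the experimental horses, and its lowest, median and highest validation levels were -1.37, -0.85 and -0.48 at T0 and -1.84, -1.21 and -0.95 at T1. *NDUFAF6* was lower at T1 in each of the 3 experimental horses, as were 25.6% of all gene names, and 6 of the 7 validation horses at T0 lay above all 13 at T1. The change was -0.52 (SE 0.31, adjusted p = 0.291) and -0.43 (SE 0.13, adjusted p = 0.0139). *NDUFAF4* had the highest value among the assembly factors, and it did not pass. Its brighter probe gave levels of -1.13, -1.62 and -1.72 at T0 and -1.48, -0.61 and -1.39 at T1 in the experimental horses. In the validation horses that probe's lowest, median and highest levels were -2.19, -1.76 and -0.42 at T0 and -2.03, -1.48 and -0.067 at T1. The T0 and T1 values overlapped over most of their range, with a change of 0.33 (SE 0.36, adjusted p = 0.576) in the experimental set and 0.24 (SE 0.30, adjusted p = 0.546) in the validation set. The dimmer of the 2 probes shown above went the other way, from -3.70 ± 0.093 (SD, n = 3) to -4.51 ± 0.51 and from -3.78 ± 0.40 (SD, n = 7) to -4.47 ± 0.40 (n = 13), which are differences of -0.81 and -0.69. No direction is therefore given for *NDUFAF4*. Among the other assembly factors, *NDUFAF5*, which hydroxylates *NDUFS7*, had a validation value of -0.42 (SE 0.18, adjusted p = 0.0709), *NDUFAF1* of -0.14, *NDUFAF2* of -0.19 and *NDUFAF7*, an arginine methyltransferase, of 0.12. Over all members, 27 were read by more than 1 usable probe, and the probes disagreed in sign for 2 of them in each set (*NDUFAF4* in both, *NDUFB9* in the experimental set and *NDUFA8* in the validation set).

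**Figure D2:**
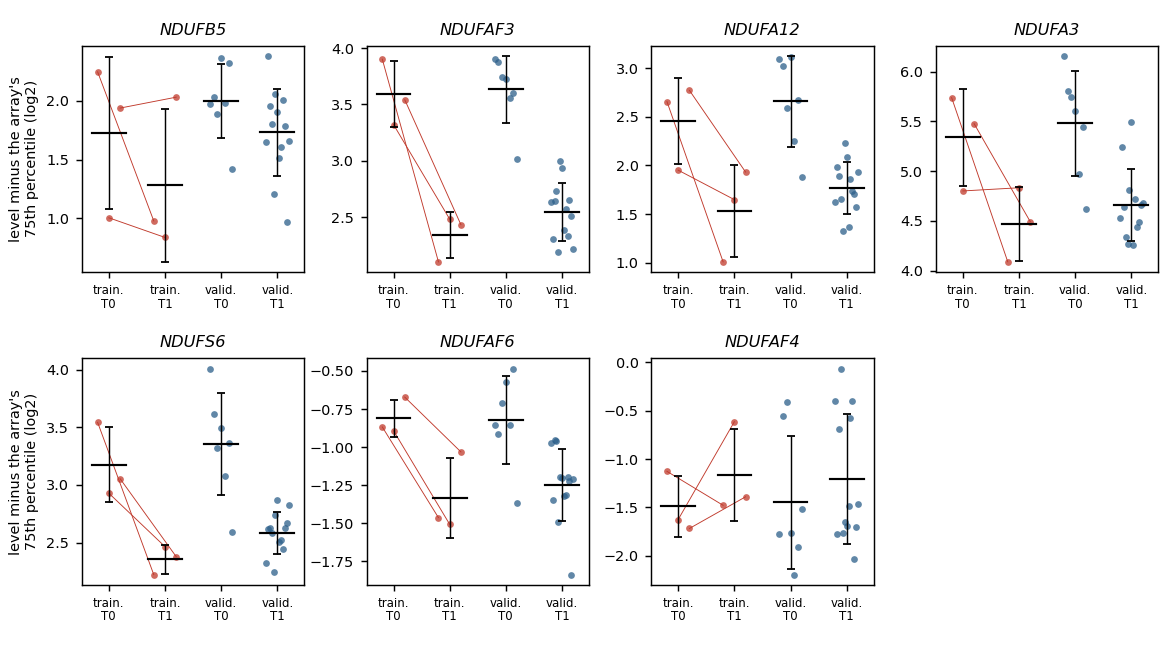
Levels (y axis, log2 minus the array's 75th percentile) of 7 complex I genes in the 4 groups (x axis), 1 point per array, with the mean and SD in black and lines joining the 2 samples of each experimental horse. The T0 and T1 values of NDUFAF3 are apart in both sets, and those of NDUFB5 and NDUFAF4 overlap. NDUFA12, NDUFS6 and NDUFAF6 fall in each experimental horse, and their T0 and T1 values are apart in that set too, although none of them passed there.

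In the experimental set, which asks for the change within a horse, *NDUFAF3* alone passed, as lower, and 0 members were higher, where 3.96% of the 17486 gene names tested fell and 6.20% rose. The count of members that fell was 12 with normexp and quantile normalization, 11 with the series values, 6 with all 26 arrays in a single fit and 2 with quantile normalization. It was 0 with no filter, with the mean of a gene's probes, without horse 2 or without horse 32. With the scan day as a term in place of the horse, it was 0 too. At an unadjusted p under 0.05, 6 of the 41 passed, and 5216 of the 17486 gene names did, which is a larger share. The median change was -0.48 over the subunits and -0.21 over the assembly factors, against 0.031 over all gene names tested. With quantile normalization the split over all gene names was 1010 higher and 1027 lower, with normexp and quantile normalization 1142 and 1230, and with the series values 1059 and 1163, in place of 1084 and 693. The 3 horses differed. The median over the subunits was -1.0 in horse 2, with 32 of the 34 lower at T1, and -0.38 in horse 41, with 27 lower, but 0.060 in horse 32, with 14 lower. Without horse 2 the median over the subunits was -0.18 and that over the assembly factors -0.039. Over all members 16 of the 41 were lower at T1 in each of the 3 horses, where 25.6% of all gene names were. The 16 included *NDUFS1*, *NDUFS3*, *NDUFS7*, *NDUFS8*, *NDUFV1* and *NDUFV2* among the core subunits, and *NDUFAF3*, *NDUFAF5* and *NDUFAF6*. The call of *NDUFAF3* was lost without horse 2 (-0.98, adjusted p = 0.221) and without horse 32 (-1.46, adjusted p = 0.133). Over 13 alternatives its adjusted p ran from 0.00239 to 0.221, 8 of them passed, and all 13 kept it lower. The horse was a block in this fit. With neither this pairing nor the scan day, *NDUFAF3* was again the 1 member called lower and 0 were higher.

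The median over the genes on each array gives the spread between the animals. Each gene was set to 0 at its mean over the 26 arrays. Over the subunits the lowest, median and highest validation arrays were at -0.19, 0.39 and 0.60 at T0 and at -0.50, -0.15 and 0.28 at T1. All 13 horses at T1 lay below the median at T0, and 6 lay below all 7. Over the assembly factors the values were -0.21, 0.26 and 0.56 at T0 and -0.51, -0.12 and 0.21 at T1. Here too all 13 lay below the median at T0, and 3 lay below all 7. The subunit median minus that of the assembly factors had a mean of 0.082 ± 0.18 in the 7 horses at T0 and of -0.0033 ± 0.21 (SD) in the 13 at T1, so that the 2 groups of genes differed between the time points by less than the spread between horses. The corresponding experimental values were 0.14 ± 0.24 and -0.024 ± 0.22 (SD, n = 3, the same horses at both times). By horse, this difference went from 0.42 to -0.088 in horse 2 and from 0.031 to -0.21 in horse 41. In horse 32 it rose, from -0.024 to 0.22. Horse 47 was the lowest of the 7 T0 arrays of the validation set for both groups of genes, and horse 32 the lowest of the 3 experimental ones.

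**Figure D3:**
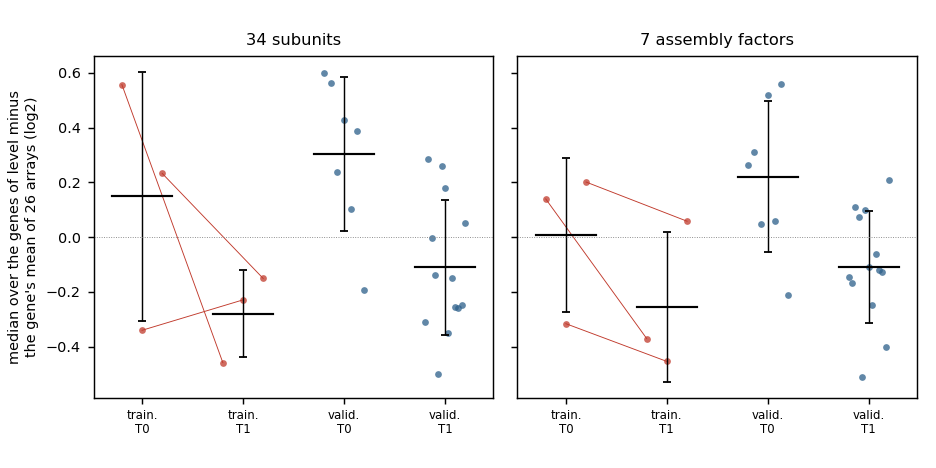
Median over 34 subunits (left) and 7 assembly factors (right) of the level minus each gene's mean over 26 arrays (y axis, log2), 1 point per array in the 4 groups (x axis), with the mean and SD in black and lines joining the samples of an experimental horse. In the validation set the T1 arrays lie lower than most T0 arrays in both panels, and horse 32 is the red line that rises in the left panel.

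The members did not vary as 1 block between horses. The SD between horses had a median over the members of 0.36 in the validation set at T0 and 0.34 at T1, and at T1 it ran from 0.18 in *NDUFS1*, the largest core subunit, to 1.02 in *NDUFA9*, an accessory subunit at the junction of the matrix and membrane arms. The following genes were picked after their values were seen, and no test was made of them. *NDUFA9* and *NDUFS3* were high or low together in the horses given here. Relative to its mean over all arrays, *NDUFA9* was at -1.78 and -2.07 in validation horses 19 and 21 at T1, where *NDUFS3* was at -0.90 and -0.86. In horse 24 at T1 they were at 1.26 and 0.74, in horse 29 at T0 at 1.57 and 1.03, and in experimental horse 32 at T0 at 1.82 and 1.04. With a spread of this size the value of *NDUFA9* in the validation set, -0.67, had an SE of 0.43, against 0.17 for *NDUFA12*.

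**Figure D4:**
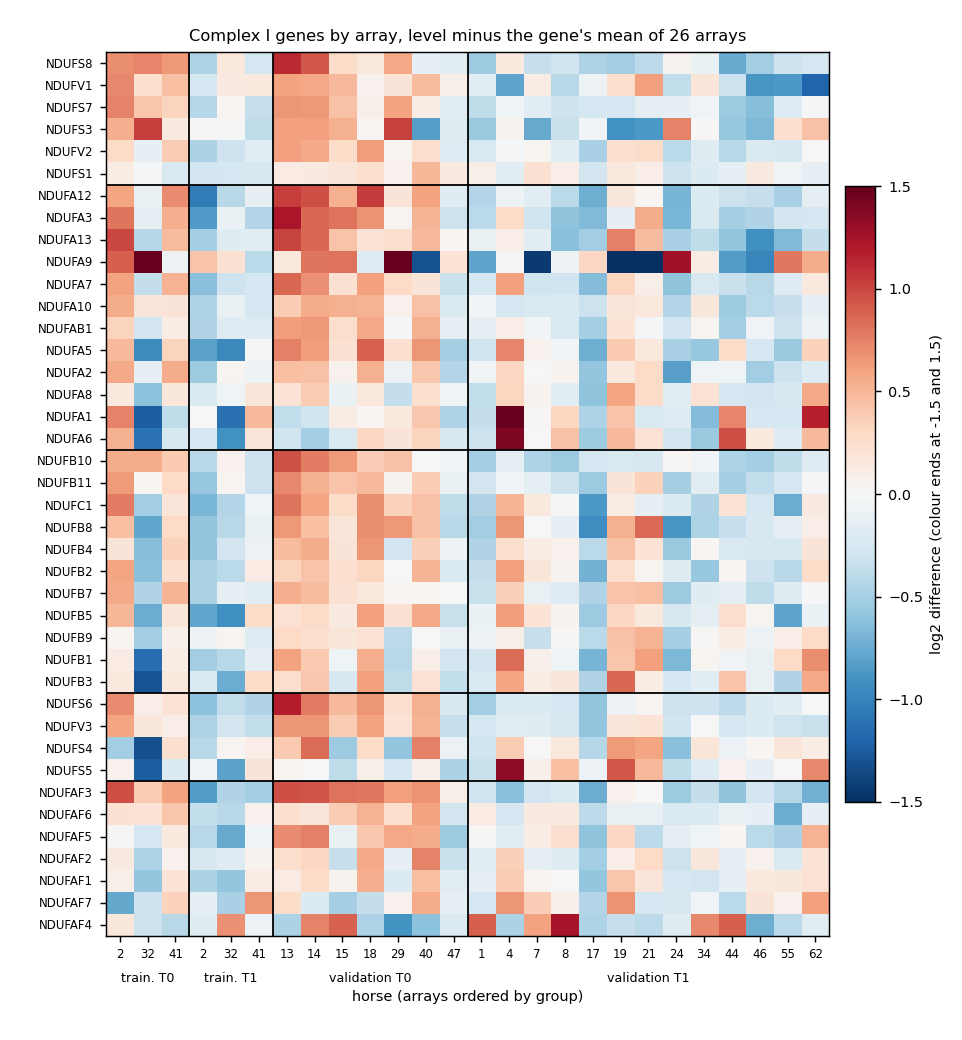
Level of 40 of the 41 complex I genes (rows, by role as core, NDUFA, NDUFB and NDUFC, other accessory subunits and assembly factors) on each array (columns, by group and horse) minus the gene's mean over 26 arrays (colour, log2, red higher, blue lower). Most rows are redder in the validation T0 columns than at T1, but the T0 column of horse 47 is mostly blue. The rows of NDUFA9 and NDUFS3 share red and blue columns.

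The changes in the 2 sets, which share 0 horses, were close in most members. Of the 41, 31 were below 0 in both, 6 above 0 in both, and Pearson's r over the 41 genes was 0.93. Over the 17137 gene names tested in both sets r was 0.93 too, so that this was not particular to complex I, and genes are not independent replicates. In limma's test of the difference between the sets 0 members passed and 0 had an unadjusted p under 0.05. Of the 19396 gene names 0% passed, and 157 had an unadjusted p under 0.05. The largest of these differences was that of *NDUFS4*, with 0.53 and an unadjusted p of 0.257.

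Genes of the other respiratory complexes are given next as a comparison. Over all gene names tested in the validation set, 23.9% fell and 20.3% rose. Of 7 complex I subunits that the mitochondrial DNA encodes, 2 fell in the validation set, with a median change of -0.36, and *ND5*, a proton-pumping subunit, headed the list (-0.90, SE 0.21, adjusted p = 0.00145). Of the 3 complex II subunits tested 0 passed (median -0.32). Of 7 complex III subunits 1 fell and 1 rose (median -0.17), and *UQCRB*, a subunit that helps to bind ubiquinone, rose by 1.24 (SE 0.21, adjusted p = 0.000115) and in the experimental set by 1.68 (SE 0.36, adjusted p = 0.0259). Of 9 complex IV subunits 1 fell and 1 rose (median -0.11), headed by *COX5A* (-0.64, SE 0.15, adjusted p = 0.00188). Of 14 subunits of complex V, the ATP synthase, 4 fell and 0 rose (median -0.17), headed by *ATP5G2*, which encodes the ring subunit c (-0.99, SE 0.17, adjusted p = 0.000119). Of 8 further assembly factors of complex I without an NDUF symbol, 3 fell and 1 rose (median -0.47), headed by *FOXRED1* (-1.36, SE 0.47, adjusted p = 0.0234). With these 8 counted in, the median over the assembly factors was -0.21 in the validation set and -0.37 in the experimental set. In the experimental set *UQCRB* was the 1 gene of these lists that passed. No test was made between the lists.

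Markers of blood cells also differed between T0 and T1, and their part in these results was not tested. Over all gene names tested in the validation set, 23.9% fell and 20.3% rose. In the validation set 7 of 9 neutrophil markers tested rose and 0 fell, and the mean over the list, each gene set to 0 at its mean over the 26 arrays, lay between -1.71 and 0.47 at T0 and between 0.031 and 1.33 at T1. Of the lymphocyte markers tested, 8 of 9 for T cells, 7 of 8 for B cells and 5 of 7 for NK cells fell, and 0, 0 and 1 rose. The T cell list lay between -0.068 and 1.14 at T0 and between -1.22 and 0.19 at T1, the B cell list between 0.068 and 1.45 and between -1.75 and 0.33, and the NK cell list between -0.60 and 1.21 and between -0.67 and 0.15. Of 5 monocyte markers 2 rose, and the list lay between -0.67 and 0.088 at T0 and between -0.090 and 0.75 at T1. Neither of the 2 platelet markers tested passed, and of the 3 erythroid markers 1 rose (*HBB*). The platelet list lay between -0.92 and 0.64 at T0 and between -0.80 and 1.0 at T1, and the erythroid list between -1.54 and 1.17 and between -0.55 and 2.45. The erythroid genes *SLC4A1* and *EPB42* were well above background on 0 arrays. In the 3 experimental horses the values at T0 and T1 did not overlap for any of these lists but the erythroid one. For the platelet list the gap was only from 0.385 (highest at T0) to 0.389 (lowest at T1). With 3 horses such a separation says little, and its share over all gene names was not counted. Horse 47, whose complex I genes at T0 were lowest, was at 0.47 for the neutrophil list, the highest of the 7 T0 horses, and at -0.068 for the T cell list, the lowest. Experimental horse 32, which was also low at T0, was at -1.91 and 1.23, the lowest and the highest of its group. Among the validation horses at T1 the T cell list was lowest in horses 21 and 4 (-1.22 and -1.17) and highest in horse 24 (0.19). The subunit medians of horses 21, 4 and 24 were 0.18, 0.28 and -0.35. Without horse 47, 21 members fell in place of 17, the median over the subunits was -0.58 and that over the assembly factors -0.27. Of all gene names 4515 fell in that fit, in place of 4161.

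The arrays had been scanned on 8 days, and 5 of these held validation horses of both time points. Within these days, of 2 to 5 arrays each, the median difference of the subunits was 0.070, -0.46, -0.85, -0.61 and 0.15, and that of the assembly factors -0.32, 0.055, -0.35, -0.74 and 0.11. *NDUFAF3* was lower at T1 within each of the 5, by -1.19 to -0.45. With the scan day as a term, 13 members fell and 1 rose, and of the 17403 gene names 3835 fell and 3373 rose. The median over the subunits was then -0.39, and with the sex of the horse as a term it was -0.47. Within the 2 scan days that held experimental horses of both time points, which were different horses, the median of the subunits was -0.16 and -0.57, that of the assembly factors 0.11 and -0.086, and *NDUFAF3* was at -1.22 and -1.47.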

How the data were processed

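Whole-blood RNA was hybridised by the authors to 1-colour Agilent equine arrays. The deposited scanner files hold an intensity per spot, which Feature Extraction had corrected for background and spatial trends but not normalized between arrays, and the deposited series table holds log2 values whose normalization is not given in the sources used here. The submitters' processing notes name limma. Set, time point and horse number were read from the labels. Control spots and 386 outlier spots were left out, levels were log2 processed signals less the 75th percentile of that array, and the brightest probe stood for a gene name. Symbols were taken through the gene IDs of a RefSeq table, of which no coordinates were used.

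T1 was compared with T0 with limma 3.58.1 in R 4.3.3 over all gene names that were well above background on a minimum of 3 of the 6 experimental arrays, with the horse as a fixed block, or of 7 of the 20 validation arrays. The difference between the sets was tested over 26 arrays, the horse being a random block. P-values were adjusted by Benjamini and Hochberg, with a threshold of 0.05. The labels give a horse's 2 arrays the same number, and their deviations from the group means correlated across genes with r of -0.00866, 0.213 and 0.191 in horses 2, 32 and 41. Between different horses r ran from -0.354 to 0.186, so that these values do not settle the pairing, which rests on the labels. Precision is limited by how many arrays there are.

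The members, lists, tests and named genes were chosen with earlier results of these data known. Values in every experimental sample, and the lowest, median and highest of each validation group, are given for some members. These are *NDUFB5*, members past the threshold in the experimental set, and the 3 subunits and 2 assembly factors that fell most, or rose most, in the validation set (where none rose, the one above 0 with the smallest adjusted p). The values of 1 member are not reported here, although it was counted with the others. Of the other lists, only the gene that heads a list is named with its values. Alternatives were normexp (offset 50) with quantile normalization, quantile normalization, the series values, a filter either dropped or required of every array, probes of a gene averaged, all 26 arrays in a single fit, the median in place of the percentile, no replicate block, scan day, slide or sex, and horses left out. Scan days in the experimental set, *NDUFAF3* within scan days and the difference between the sets without each experimental horse were added after the data were seen. The scripts were tested on simulated data. Figures were drawn with matplotlib 3.10.9 in Python 3.11.15.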

Additional observations from a re-analysis of the deposited data

Results flagged for a closer look

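The level of *NDUFAF3* in validation horse 47 at T0 was 3.02, apart from the 6 other T0 horses, which lay between 3.55 and 3.90. Its gap to the nearest was 0.606 of the group's whole range, above Dixon's 95% critical value of 0.568 for 7 samples. Of 9 values examined in this group (7 genes and 2 medians) this was the 1 that stood out in this way. Chance gives about 1 in 20 groups where a single value is examined, and more where 9 are. The T1 horses lay at 3.0 or lower, and without horse 47 the change of *NDUFAF3* was -1.19.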

How the results depend on the processing

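The median over the subunits stayed below 0 in every alternative fit of both sets, between -0.67 and -0.18 in the experimental set and between -0.59 and -0.39 in the validation set. The count of members called in the experimental set depended on the settings. It was 12 with normexp and quantile normalization, 11 with the series values, 6 with all 26 arrays in a single fit and 2 with quantile normalization. With no filter, the mean of a gene's probes, or the scan day in place of the horse block, it was 0. Without each horse in turn it lay between 0 and 1. Over all gene names there, 1084 rose and 693 fell, against 40 and 6 with no filter, 1577 and 1265 with a filter on every array, 1820 and 1174 with all 26 arrays, and 131 and 42, 213 and 76, and 1708 and 1274 without horses 2, 32 and 41. With no replicate block, and so without the pairing, the count remained 1. In the validation set the count of members that fell was 26 with normexp and quantile normalization and 26 with the series values, against 17, and 1 rose with the mean of a gene's probes and 1 with the scan day as a term. *NDUFAF4* turned with the mean of its probes (-0.24 and -0.22 in the experimental and validation set). It also turned with the scan day in place of the horse block (-0.058 in the experimental set), and it lay between -0.012 and 0.67 without each experimental horse. Within scan days the medians reversed or moved as the report gives them (subunits 0.070, -0.85 and 0.15, assembly factors 0.055, -0.74 and 0.11 in the validation set, and 0.11 in the experimental set). The causes were not tested. The count of members that differed between the sets was 0 under each alternative. Counting the *NDUFA4* family among the subunits was not run, since neither of its genes could be tested. *NDUFA12*, *NDUFA3*, *NDUFS6*, *NDUFAF3* and *NDUFAF6* passed in the validation set under all 13 alternatives.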
